A study of Mus musculus with 19 samples.

Results

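The genes described here encode BiP, the HSP70 chaperone of the endoplasmic reticulum (ER), and the proteins that work beside it. They were chosen by name, as the rows of the count table whose Ensembl identifier, version dropped, maps to the ER members of the HSP70 and HSP90 families, their J-domain partners and their nucleotide exchange factors. All 10 were found among the 51789 genes of the table: Hspa5 (BiP), Hsp90b1, Hyou1, Hspa13, Sil1, Dnajb11, Dnajc3, Dnajb9, Dnajc10 and Sdf2l1. All 10 passed the filter on low counts in both experiments, and the lowest count of any of them in any library was 320.

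BiP holds unfolded stretches of newly made secreted and membrane proteins and releases them in a cycle driven by ATP. J-domain proteins deliver clients to BiP and make it hydrolyse ATP, while exchange factors remove the ADP so that the next round can start. BiP also binds the ER stress sensors, and when unfolded protein accumulates these sensors switch on transcription of the chaperone genes in a programme called the unfolded protein response. In neurons this machinery serves the receptors, channels and secreted factors that pass through the ER on their way to synapses.

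The dorsal hippocampus of 19 male mice (C57BL/6J, 2 to 4 months old) gave 1 library each. Experiment 1 held 5 mice with the genotype tTA+/DN+ and 6 controls with the genotype tTA+/DN-, and all 11 had been exposed to SOR, which the labels give as an abbreviation only. DN is the transgene of the line the submitters call Nr4ADN, so all mice of experiment 1 shared tTA, a transactivator that turns on genes under a tet promoter, and differed in DN. Experiment 2 held 8 controls without DN: 4 exposed to SOR (replicate 1 tTA-, the other 3 tTA+) and 4 kept in the homecage (replicates 1 and 2 tTA-, replicates 3 and 4 tTA+). The promoter that drives tTA, and so the cells that carry active DN, is not given in the sources used here. Nothing in the labels says whether mice of a group shared a litter or a day, so p-values measure the spread between these samples.

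Libraries held 22258159 to 66991576 counts, and SOR replicate 3 of experiment 2 was the shallowest, with 27815 genes detected. Levels below are CPM, a gene's count as a share of its library's total, after TMM scaling over all 19 libraries. Nr4a1, Nr4a2 and Nr4a3 had log2 fold changes of -0.26 to -0.11 with DN, with none called by edgeR, DESeq2 or limma-voom and 0 at an unadjusted p under 0.05, so they do not separate the libraries labelled DN from the controls. DN has no row of its own in the table. The sources used here do not say if reads from it were assigned to one of these 3 genes, so the values may mix both. All 6 hippocampal neuron markers examined, among them Snap25 and Camk2a, had counts in every library, with a summed level of 2840 to 3963 CPM. The summed level of 8 choroid plexus markers exceeded 1000 CPM in DN replicate 2, in control replicates 1 and 2 of experiment 1 and in SOR replicates 1 and 2 of experiment 2, and in no homecage library. The results on the chaperones and on the lists below are therefore also given without them. In bulk tissue, fewer cells of a type and less RNA per cell cannot be told apart.

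Promoter sequences were examined first, because several ER chaperone genes are known to be switched on through a shared element, the ER stress response element (ERSE). It was searched as CCAAT, then 9 bases, then CCACG, on both strands, in the RefSeq windows (GRCm38.p6) from 250 bases before to 50 bases after each gene's start. Windows were found for 7 of the 10 genes, and 3 of them held an ERSE: Hspa5, Hsp90b1 and Dnajc3. Among all 27025 genes with a window, 0.137% held one. The sequences of those 3 genes are shown with that of Sdf2l1, which holds none, because these promoters belong to the 3 genes that rose after SOR and to a chaperone, Hsp90b1, that holds the element and did not pass the test. Capitals mark the outer parts of each ERSE, and each sequence reads 5′ to 3′ along the gene's own strand.
Hspa5: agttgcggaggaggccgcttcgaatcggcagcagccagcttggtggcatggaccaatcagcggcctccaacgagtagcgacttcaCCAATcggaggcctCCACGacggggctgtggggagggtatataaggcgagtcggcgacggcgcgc
Hsp90b1: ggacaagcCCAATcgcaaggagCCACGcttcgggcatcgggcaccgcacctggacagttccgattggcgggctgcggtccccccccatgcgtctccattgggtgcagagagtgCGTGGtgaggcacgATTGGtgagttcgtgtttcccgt
Dnajc3: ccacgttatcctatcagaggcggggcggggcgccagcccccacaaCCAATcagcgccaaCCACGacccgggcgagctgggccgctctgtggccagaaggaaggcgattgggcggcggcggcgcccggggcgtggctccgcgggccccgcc
Sdf2l1: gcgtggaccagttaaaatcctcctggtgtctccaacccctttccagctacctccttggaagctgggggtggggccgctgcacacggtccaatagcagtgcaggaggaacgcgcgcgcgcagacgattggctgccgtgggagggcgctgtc
The Hspa5 stretch is chr2:34771940-34772089 on the plus strand, and its ERSE runs from base -65 to base -47 before the RefSeq start. The GENCODE annotation, used for the gene positions given below, starts Hspa5 at 34771970, inside this stretch. The Hsp90b1 stretch is chr10:86705515-86705664 on the minus strand and holds the element from -212 to -194, and again from -107 to -89 on the opposite strand. The Dnajc3 stretch is chr14:118937782-118937931 on the plus strand, with the ERSE from -105 to -87. The Sdf2l1 stretch is chr16:17132384-17132533 on the minus strand.

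Dnajb11 held a related element, ERSE-II (ATTGG, then 1 base, then CCACG), from base 8 to base 18 after its start, and 0.0444% of all genes with a window held one. It is shown because Dnajb11 had the highest within-group correlation with Hspa5 of these genes over all 19 libraries, though not within either experiment alone.
Dnajb11: ggcggcgATTGGcCCACGcctggct
This stretch is chr16:22857845-22857869 on the plus strand. The unfolded protein response element TGACGTGG, the cAMP response element TGACGTCA and the NBRE AAAGGTCA, the site that Nr4a proteins bind as monomers, were in 0 of the 7 windows, and in 0.714%, 2.03% and 1.7% of all genes with a window. The CCACG of both ERSE forms is the complement of the CGTGG that ends the unfolded protein response element, and the latter shares its first 6 letters with the cAMP response element. A match is a description of the letters and not a bound site, and other positions were not searched.

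BiP was the most abundant of the 10 mRNAs per length of exon, followed by the ER HSP90. In homecage mice Hspa5 stood at 88.3 ± 9.31 CPM per kb and Hsp90b1 at 74.5 ± 7.69 CPM per kb (SD, n = 4 each), and the ranges of these neighbours over the 4 libraries overlapped. Dnajc3 at 22.9 ± 0.73, Dnajc10 at 22.7 ± 0.711 and Hyou1 at 21.3 ± 1.02 CPM per kb came next and lay within each other's spread. Dnajb11 followed at 17.8 ± 1.27 CPM per kb. Hspa13 at 12.1 ± 1.58, Sdf2l1 at 10.2 ± 1.25 and Dnajb9 at 10.1 ± 1.13 CPM per kb were again not apart by more than their spread, and Sil1 was lowest at 7.58 ± 0.466 CPM per kb. The scale divides by the union of annotated exons. With the longest transcript in its place 5 of the 10 genes kept their place, Hspa5 and Hsp90b1 among them. Sil1 then stood at 15.3 and Sdf2l1, the lowest, at 10.2 CPM per kb, so the order below Hsp90b1, its lower end included, depends on the gene model.

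**Figure D1:**
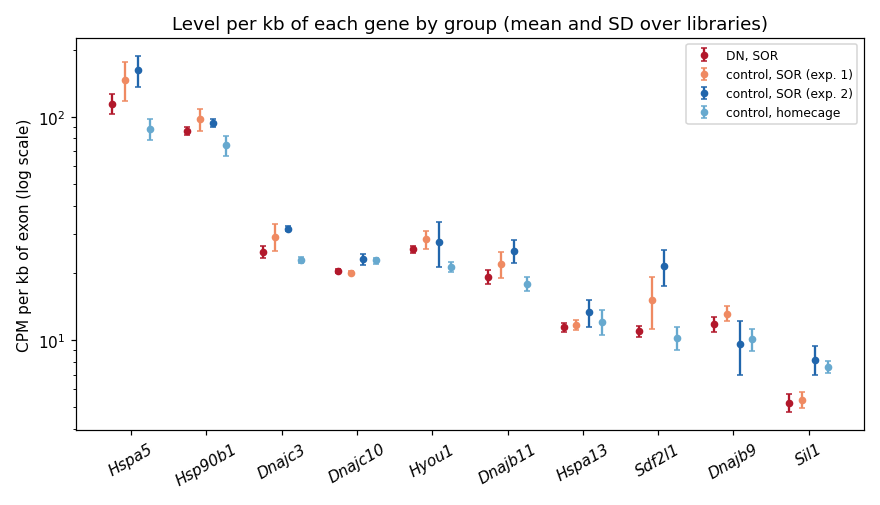
Mean level of each gene in CPM per kb of exon (log axis) in the 4 groups, with bars of 1 SD over libraries, genes ordered by their homecage mean. Hspa5 and Hsp90b1 stand above the other 8 genes in every group, and the groups spread apart most in Hspa5 and Sdf2l1.

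Exposure to SOR was compared with the homecage in the control mice of experiment 2. Hspa5, Sdf2l1 and Dnajc3 rose, by edgeR's quasi-likelihood test with Benjamini-Hochberg adjustment over 22305 genes, and none of the 10 fell. These 3 stand against 0.0897% of all genes tested that were called higher. At an unadjusted p under 0.05, 6 of the 10 were higher, against 3.67% of all genes. In 5 of the 10 every SOR library lay above every homecage library, against 3.07% of all genes. Log2 fold changes were above 0 in 9 of the 10, against 51.5% of all genes, and their median was 0.34 against 0.01 over all genes tested.

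Hspa5 (ENSMUSG00000026864.13, chromosome 2, 34771970 to 34777547, plus strand, GRCm38), which encodes BiP itself, reached 687, 619.7, 839 and 593 CPM in the SOR libraries, listed by replicate number as in all sentences below. Its homecage levels were 409.8, 323, 399 and 362 CPM. The lowest SOR library thus lay well above the highest homecage library, and SOR replicate 3 was the highest of all 19 libraries. The level was 1.82-fold higher after SOR (95% interval 1.52 to 2.19), or 0.87 ± 0.119 (SE) on the log2 scale, at an adjusted p of 0.0228 in edgeR.

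Sdf2l1 (ENSMUSG00000022769.7, chromosome 16, 17130138 to 17132383, minus strand), a small partner of Dnajb11 that keeps BiP clients soluble, had the largest fold change of the 10. It reached 24.9, 21.5, 29.3 and 19.3 CPM in the SOR libraries, and its homecage levels were 12.6, 9.54, 12.2 and 11.02 CPM. The groups did not overlap, and the libraries highest and lowest in Hspa5 within each group were also highest and lowest in Sdf2l1. It was 2.08-fold higher after SOR (95% interval 1.68 to 2.57), or 1.05 ± 0.141 (SE) on the log2 scale, at an adjusted p of 0.0200 in edgeR. Its promoter stretch printed above holds no ERSE.

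Dnajc3 (ENSMUSG00000022136.7, chromosome 14, 118937976 to 118981697, plus strand), a J-domain cochaperone that also binds clients, reached 160.1, 168, 159 and 163 CPM in the SOR libraries. Its homecage levels were 119, 113, 122 and 117 CPM. Replicates were tight in both groups, with coefficients of variation of 2.45% and 3.18%, and SOR replicate 3, the highest in Hspa5, was not high here. It was 1.37-fold higher after SOR (95% interval 1.23 to 1.53), or 0.46 ± 0.0700 (SE) on the log2 scale, at an adjusted p of 0.0432 in edgeR. This call was the least stable of the 3: the adjusted p was 0.0541 without a filter, 0.0558 with at least 10 counts in every library, 0.0968 with upper quartile scaling and 0.139 with the replicate number as a block, while the log2 fold change stayed between 0.41 and 0.46.

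The calls of these 3 genes were lost in several fits, while their fold changes moved little. Left out in turn, homecage replicates 1, 2, 3 and 4 and SOR replicate 1 each left 0 of the 10 genes called, with log2 fold changes of 0.76 to 0.93 for Hspa5, 0.94 to 1.14 for Sdf2l1 and 0.44 to 0.47 for Dnajc3 over all 8 such fits. Without SOR replicate 2 or 4, Dnajc3 alone lost its call. A tTA covariate in edgeR moved the adjusted p of Hspa5 to 0.0632, that of Sdf2l1 to 0.0594 and that of Dnajc3 to 0.120. In tTA+ mice alone (3 against 2) the log2 fold changes were 0.85, 1.01 and 0.45, and edgeR called no gene at all (374 had an unadjusted p under 0.05). SOR replicates 1 and 2 had summed choroid plexus markers of 1026 and 2234 CPM, against 48.2 to 176 CPM in the homecage. Without these libraries the log2 fold changes were 0.93 for Hspa5, 1.08 for Sdf2l1 and 0.43 for Dnajc3. Their adjusted p in edgeR were then 0.288, 0.298 and 0.333.

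**Figure D2:**
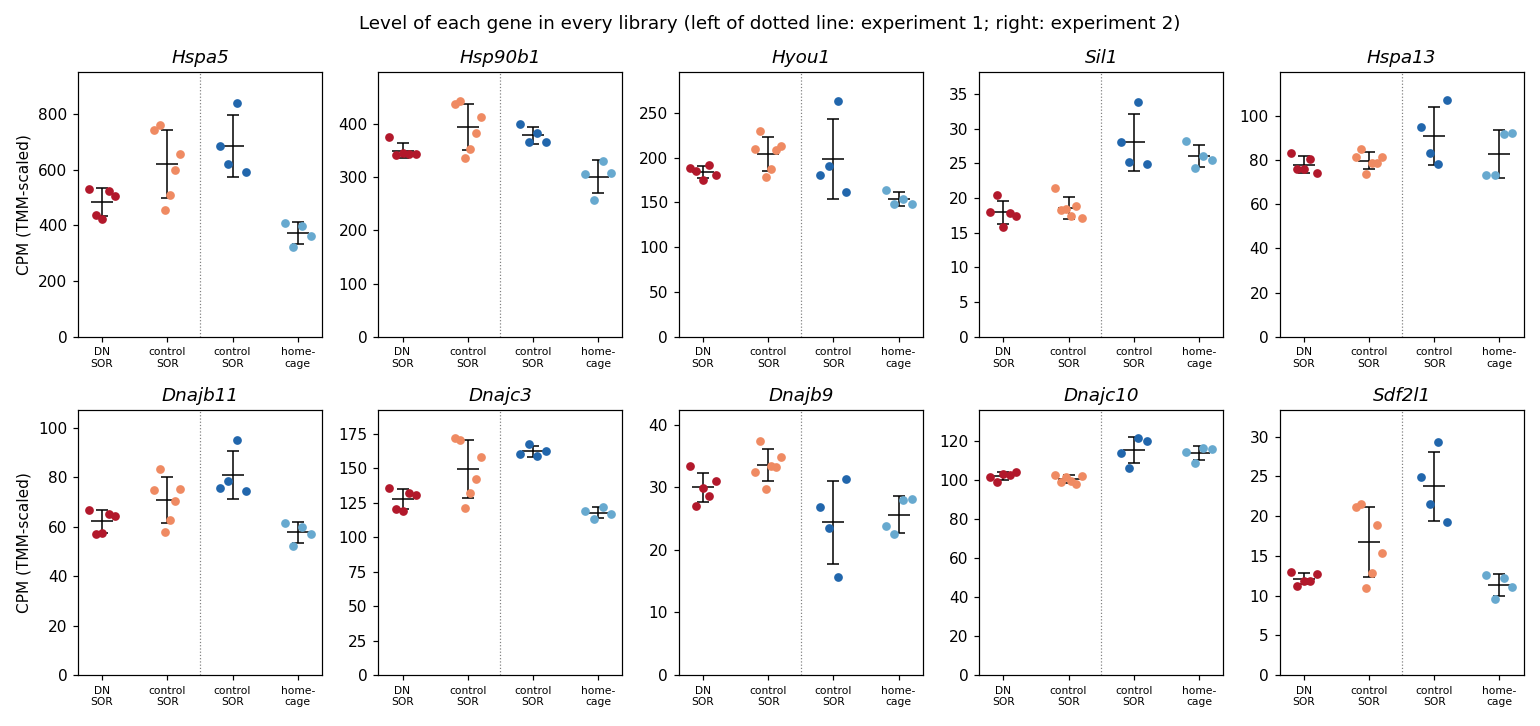
Level in CPM of each gene in every library (points), with the mean and 1 SD of each group, experiment 1 left and experiment 2 right of the dotted line. The 4 SOR libraries of experiment 2 lie above the 4 homecage libraries in Hspa5, Hsp90b1, Dnajb11, Dnajc3 and Sdf2l1, and the groups overlap in Dnajc10.

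Among the other J-domain proteins, Dnajb11 (ENSMUSG00000004460.16, chromosome 16, 22857845 to 22879634, plus strand), which delivers unfolded secretory proteins to BiP, reached 75.8, 78.6, 95.3 and 74.3 CPM in the SOR libraries. Its homecage levels were 61.7, 52.3, 59.9 and 56.9 CPM. The groups did not overlap. The difference was 0.48 ± 0.0979 (SE) on the log2 scale, and its adjusted p in edgeR, 0.177, missed the threshold. DESeq2 called Dnajb11 beside the other 3 genes, and limma-voom called the same 3 as edgeR.

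Dnajc10 (ENSMUSG00000027006.13, chromosome 2, 80315466 to 80354043, plus strand), a J-domain protein with thioredoxin folds that reduces wrong disulfides, reached 114, 106, 121 and 119.8 CPM in the SOR libraries, and its homecage levels were 114, 108, 116 and 116 CPM. The lowest and the highest of these values were both SOR libraries, and the groups overlapped. The fold was 1.01 with a 95% interval of 0.902 to 1.13, which excludes the 1.37-fold of Dnajc3. Its sign turned under several alternatives, to -0.03 on the log2 scale with upper quartile scaling.

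Dnajb9 (ENSMUSG00000014905.4, chromosome 12, 44205559 to 44210326, minus strand), a J-domain protein that holds BiP on the stress sensor IRE1, reached 26.9, 23.5, 15.7 and 31.4 CPM in the SOR libraries, and its homecage levels were 23.8, 22.5, 27.99 and 28.2 CPM. The lowest and the highest of the 8 libraries were both SOR libraries, and the lowest, replicate 3, was the one with the most Hspa5. The log2 fold change was -0.07 (95% interval -0.46 to 0.31). Without SOR replicate 3 it was 0.08. The miRNA gene Mir5627 overlaps an exon of Dnajb9 on the other strand, and the strand setting of the counting is not given in the sources used here, so its count may hold reads of both.

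Of the exchange factors, Hyou1 (ENSMUSG00000032115.14, chromosome 9, 44379490 to 44392369, plus strand), a large HSP70 relative, reached 180.3, 191, 263 and 161 CPM in the SOR libraries, and its homecage levels were 164, 149, 154 and 149 CPM. SOR replicates 1, 2 and 3 lay above all homecage libraries and replicate 4 did not. The difference was 0.36 ± 0.132 (SE) on the log2 scale, at an adjusted p of 0.621 in edgeR, and without SOR replicate 3 it was 0.20. Sil1 (ENSMUSG00000024357.9, chromosome 18, 35266396 to 35499780, minus strand), the smaller exchange factor, reached 28.1, 25.2, 33.8 and 25.0 CPM in the SOR libraries, and its homecage levels were 28.2, 24.4, 26.1 and 25.4 CPM. The Sil1 groups overlapped, and the fold was 1.07 with a 95% interval of 0.906 to 1.26. Antisense genes overlap exons of Sil1, so its counts are uncertain without strand.

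The remaining chaperones divided likewise. Hsp90b1 (ENSMUSG00000020048.13, chromosome 10, 86690209 to 86705509, minus strand), the ER HSP90 that finishes the folding of selected clients, reached 399.8, 366, 382 and 366 CPM in the SOR libraries, and its homecage levels were 305, 257, 331 and 308 CPM. The groups did not overlap, and the difference of 0.33 ± 0.0871 (SE) on the log2 scale had an adjusted p of 0.434 in edgeR. Its exons overlap 3 other annotated genes, among them the pseudogene 1810014B01Rik on the other strand, which makes its count uncertain. Hspa13 (ENSMUSG00000032932.14, chromosome 16, 75745431 to 75767104, minus strand), an HSP70 ATPase that lacks the client-binding part, reached 94.7, 83.1, 78.2 and 107 CPM in the SOR libraries. Its homecage levels were 73.2, 73.4, 91.7 and 92.3 CPM, where both tTA- mice lay below both tTA+ mice. The Hspa13 groups overlapped, the log2 fold change was 0.13 (95% interval -0.13 to 0.39), and in tTA+ mice alone it was -0.04.

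DN was compared with its controls in experiment 1, after SOR in both groups. None of the 10 genes was called, by edgeR, DESeq2 or limma-voom, where 0.00893% of 22391 genes were called by edgeR. The edgeR log2 fold change was below 0 in 9 of the 10, against 50% of all genes, and 6 of the 10 were lower at an unadjusted p under 0.05, against 1.81% of all genes. In none of the 10 did the groups stand apart, against 0.304% of all genes. The median log2 fold change of the 10 was -0.17, against 0.00 over all genes.

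DN libraries held 531, 436, 424, 523 and 504 CPM of Hspa5, again by replicate number. The 6 controls ranged from 456 to 761 CPM, with a median of 629 CPM. Control replicates 3 and 4, at 456 and 509.7 CPM, lay among the DN libraries, and control replicates 1, 2, 5 and 6 lay above all of them. The log2 fold change was -0.36 (95% interval -0.69 to -0.04) with an unadjusted edgeR p of 0.0334 and an adjusted p of 0.999.

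Sdf2l1 levels with DN were 12.96, 11.2, 11.8, 11.8 and 12.7 CPM. Controls ranged from 10.98 to 21.5 CPM, with a median of 17.1 CPM. The same control replicates, 1, 2, 5 and 6, lay above every DN library, and the DN values were close together. The log2 fold change was -0.47 (95% interval -0.86 to -0.08), the largest of the 10, with an unadjusted edgeR p of 0.0239 and an adjusted p of 0.999.

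Dnajc3 levels with DN were 136, 120.3, 119, 132 and 131 CPM, and controls ranged from 121 to 172 CPM around a median of 150.5 CPM. Dnajb11 levels with DN were 66.8, 57.0, 57.6, 65.1 and 64.2 CPM, and controls ranged from 58.0 to 83.4 CPM around a median of 72.7 CPM. In both genes control replicates 1, 2, 5 and 6 were again the ones above all DN libraries. The log2 fold changes were -0.23 for Dnajc3 (unadjusted edgeR p of 0.0354) and -0.19 for Dnajb11 (unadjusted edgeR p of 0.0592).

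Hsp90b1 levels with DN were 376, 341, 346, 343 and 343 CPM, and controls ranged from 336 to 443 CPM around a median of 398 CPM. Hyou1 levels with DN were 189, 185, 176, 192 and 180.5 CPM, and controls ranged from 178 to 229.7 CPM around a median of 209 CPM. In both genes the controls above all DN libraries were those seen in Hspa5, with smaller log2 fold changes of -0.17 and -0.15 (unadjusted edgeR p of 0.0204 and 0.0122). Counting Hspa5, control replicates 1, 2, 5 and 6 and no others exceeded every DN library in 6 of the 10 genes, against 0.616% of all genes tested. This set of libraries was noticed in the values and is given as a description.

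Dnajb9 levels with DN were 33.3, 27.1, 29.8, 28.6 and 31.0 CPM, and controls ranged from 29.8 to 37.4 CPM around a median of 33.3 CPM. Here control replicates 2, 4 and 6 were above all DN libraries, a different set, and the log2 fold change was -0.16 (unadjusted edgeR p of 0.0110). The groups overlapped widely in Hspa13, Sil1 and Dnajc10, with log2 fold changes of -0.03, -0.05 and 0.02. The 95% interval of Dnajc10 ran from -0.04 to 0.08 and that of Hspa13 from -0.12 to 0.05.

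**Figure D3:**
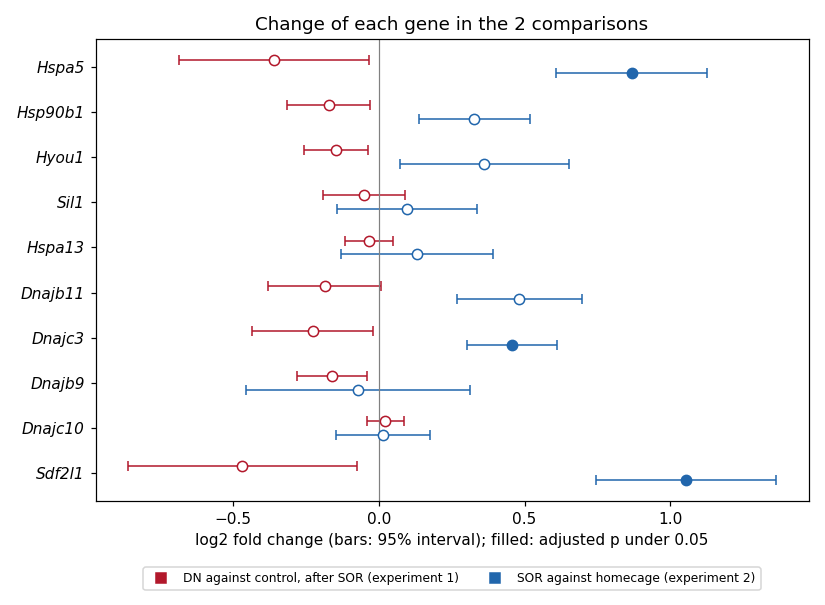
Log2 fold change of each gene with its 95% interval for DN against control (red) and for SOR against homecage (blue), where filled points passed an adjusted p of 0.05. Hspa5 and Sdf2l1 have the lowest values with DN and the highest after SOR, and Dnajc10 lies near 0 in both.

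Cell type markers and the activity-regulated genes are given beside these values in experiment 1. The summed choroid plexus level was 4013 and 1320 CPM in control replicates 1 and 2, and 1602 CPM in DN replicate 2, against 20.99 to 169 CPM in the other 8 libraries. Without those 3 libraries the log2 fold change was -0.17 for Hspa5, -0.23 for Sdf2l1, -0.10 for Dnajc3, -0.07 for Dnajb11, -0.08 for Hsp90b1, -0.09 for Hyou1 and -0.10 for Dnajb9. The median of the 10 genes was -0.09, with 8 of 10 below 0, and the unadjusted edgeR p of the 10 genes ran from 0.0959 to 0.878. Control replicates 1 and 2, rich in choroid plexus RNA, held 741 and 761 CPM of Hspa5, the highest levels of experiment 1. DN replicate 2 had much choroid plexus RNA and 436 CPM of Hspa5, and control replicates 5 and 6 had 25.2 and 20.99 CPM of choroid plexus markers and 600.3 and 657 CPM of Hspa5. The summed level of 10 activity-regulated genes, among them Fos and Arc, was 383, 525, 297 and 348 CPM in control replicates 1, 2, 5 and 6. It was 220.3 and 194 CPM in control replicates 3 and 4, and 204 to 303 CPM in the DN mice. All 8 choroid plexus markers had log2 fold changes below 0 with DN (median -0.88), and without the 3 libraries, which were chosen by these markers, all 8 were above 0 (median 0.62). Of these 8, 4 were then higher at an unadjusted p under 0.05, against 1.94% of all genes. All 10 activity-regulated genes were below 0 with DN (median -0.32), and without the 3 libraries 6 of 10 were (median -0.01). Of the oligodendrocyte markers 6 of 8 were below 0, 2 of them at an unadjusted p under 0.05, and of the 5 astrocyte markers 1 was lower at that p. Without the 3 libraries 8 of 8 oligodendrocyte markers were below 0 (median -0.07), with 3 of 8 and 2 of 5 astrocyte markers lower at an unadjusted p under 0.05, against 1.57% of all genes. In that fit 5 of 6 neuron markers, 1 of them at that p, and 5 of 5 microglia markers were below 0. All 5 endothelial and all 5 blood markers were above 0. None of these lists' genes was called by edgeR, and no choroid plexus marker was at 0 in any library. The part of these cells and genes in the differences was not tested.

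Controls varied more among themselves than DN mice in most of these genes. On the log2 scale the SD over libraries was larger in the controls for 8 of the 10 genes, while over all genes tested it was larger in the controls in 48.5%. In Hspa13 (0.0697 in controls, 0.0680 with DN) and Dnajc10 (0.0278 and 0.0269) it was nearly equal. In Dnajb9 and Sil1 it was larger with DN. The genes share the same libraries and are not separate observations. The coefficient of variation of Sdf2l1 was 26.2% in controls and 5.82% in DN mice, and that of Hspa5 was 19.8% and 10.4%. In experiment 2 the SD was larger in the homecage than after SOR for 2 of the 10 genes, against 25.6% of all genes.

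BiP mRNA made up more of the summed mRNA of these genes, per length of exon, after SOR than in the homecage. The summed CPM per kb of the 4 J-domain genes was 0.767 to 0.898 of that of Hspa5 in the 4 homecage libraries and 0.457 to 0.648 after SOR. The exchange factors Hyou1 and Sil1 summed to 0.306 to 0.362 of Hspa5 in the homecage and 0.204 to 0.233 after SOR. Neither ratio overlapped between the groups of experiment 2. In experiment 1 the J-domain ratio was 0.627 to 0.731 with DN and 0.512 to 0.682 in controls, which overlap. Hspa5 made up 29.7% to 32.3% of the summed CPM per kb of the 10 genes in the homecage and 36.5% to 42.4% after SOR. The ratio of Sdf2l1 to Hspa5 lay the other way and did not overlap either, at 0.116 ± 0.00222 in the homecage and 0.132 ± 0.00583 after SOR (SD, n = 4 each). These ratios share the Hspa5 value of each library and are given without a test.

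**Figure D4:**
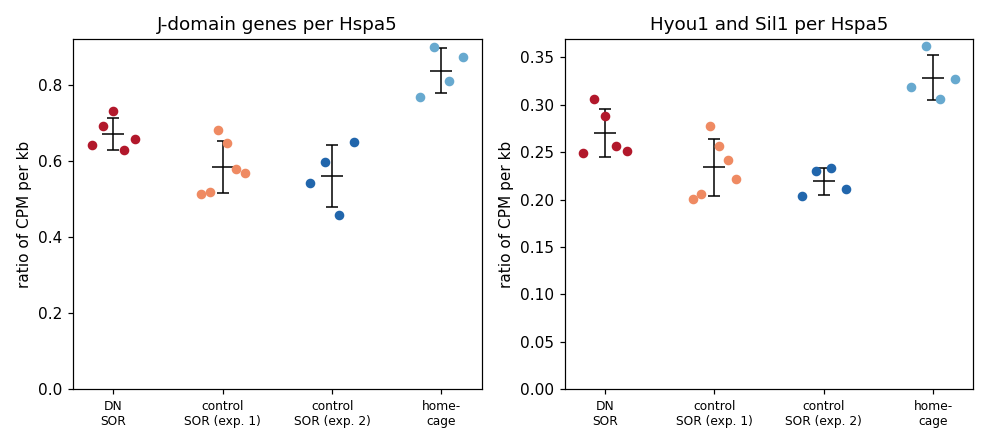
Summed CPM per kb of Dnajb11, Dnajc3, Dnajb9 and Dnajc10 (left) and of Hyou1 and Sil1 (right), each divided by that of Hspa5, by library, with the mean and 1 SD of each group. The homecage libraries lie above all others on the left, at 0.767 to 0.898, and on the right the lowest of them meets the highest DN library at 0.306.

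Within groups, the genes most like Hspa5 were other ER folding genes. Likeness was Pearson's r of log2 CPM deviations from the group means over the 19 libraries and 21739 genes, which share library depth and scaling. The 5 highest were Pdia6 at 0.973, Pdia4 at 0.967, Dnajb11 at 0.961, Pdia3 at 0.955 and Creld2 at 0.915. Pdia3, Pdia4 and Pdia6 are disulfide isomerases, and Creld2 is a secreted ER protein with CXXC motifs. Sdf2l1 came next at 0.911, followed lower down by Hsp90b1 at 0.822, Dnajc3 at 0.819 and Hyou1 at 0.780. Sil1 at 0.527, Dnajc10 at 0.320, Hspa13 at 0.10 and Dnajb9 at -0.10 were far from it. Without homecage replicate 2 and SOR replicate 3 of experiment 2, the libraries farthest from the median of Hspa5, r was 0.943 for Dnajc3, 0.0336 for Dnajc10, 0.331 for Dnajb9, 0.335 for Sil1 and 0.267 for Hspa13, so the values of these 5 rest partly on those libraries. The experiments also differed: r was 0.990 for Dnajc3, 0.810 for Hspa13 and 0.634 for Dnajb9 over the 11 libraries of experiment 1, and 0.05, -0.34 and -0.60 over the 8 of experiment 2. Sil1 lay the other way, at 0.264 and 0.953. Dnajb11 and Sdf2l1 stayed at 0.883 or above in both.

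**Figure D5:**
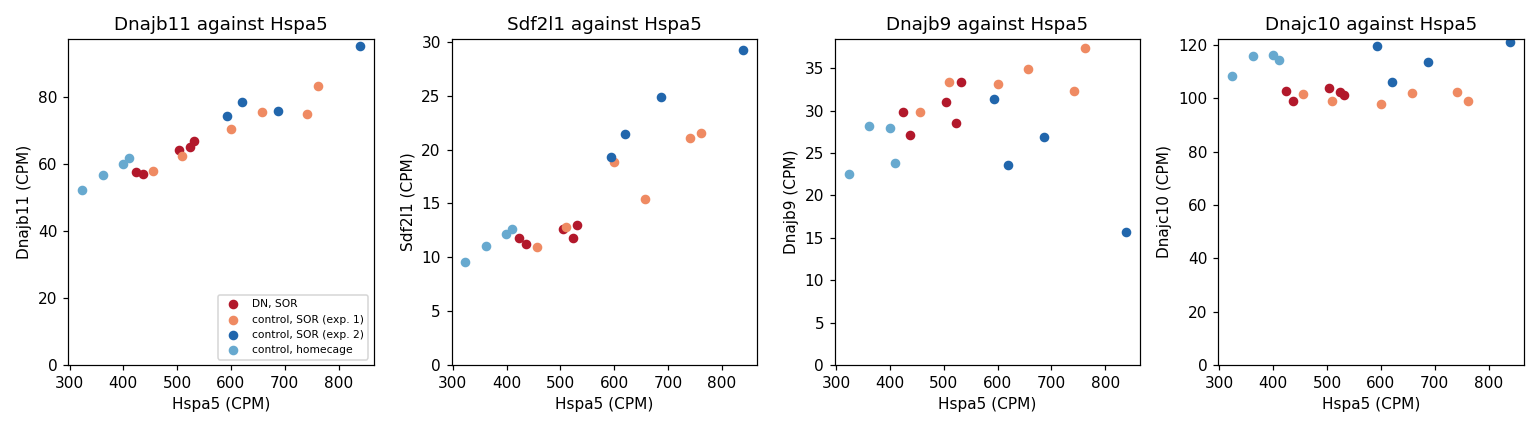
Level of Dnajb11, Sdf2l1, Dnajb9 and Dnajc10 against that of Hspa5, both in CPM, 1 point per library, coloured by group. Dnajb11 and Sdf2l1 climb with Hspa5 across all 19 libraries, Dnajc10 stays near 100.3 to 115 CPM in the group means, and Dnajb9 is lowest in the library with the most Hspa5.

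Other genes of the pathway were read from lists written for this description. After SOR, edgeR and limma-voom called 1 of 12 other ER folding and quality control genes higher, Manf, a secreted ER-stress factor, at a log2 fold change of 0.65 (edgeR adjusted p of 0.0133). DESeq2 called 6 of the 12: Manf, Pdia4, Pdia6, Calr, Creld2 and Herpud1. The median of that list was 0.38, and 8 of the 12 were higher at an unadjusted p under 0.05. Among 9 sensors and transcription factors of the unfolded protein response, Xbp1, whose spliced form activates chaperone genes, rose by 0.70 (edgeR adjusted p of 0.00879), and the median was 0.20. Of 7 other ER J proteins and partners none was called by edgeR, DESeq2 or limma-voom, with 2 at an unadjusted p under 0.05 and a median of 0.19, and Ficd, which modifies BiP, had a log2 fold change of 0.27. Of 9 HSP70 and HSP90 genes of other compartments, Hspa1b, the stress-induced cytosolic HSP70, rose by 0.99 (edgeR adjusted p of 0.00879), and it has a near-identical copy in Hspa1a, which DESeq2 and limma-voom also called. All 9 had log2 fold changes above 0, 5 of them at an unadjusted p under 0.05, with a median of 0.19. Among the cell type markers 1 gene was called after SOR, the astrocyte gene Gjb6 at 0.77, while the summed astrocyte markers ranged over 1505 to 1819 CPM after SOR and 1428 to 1628 CPM in the homecage. Of the 10 activity-regulated genes Fos and Arc rose, by 1.17 and 0.79, and DESeq2 called 5 (these with Fosb, Junb and Egr1). The sum of the 10 was 273 to 290.1 CPM after SOR against 171 to 205 CPM in the homecage. Oligodendrocyte markers were higher in 7 of 8, 2 of them at an unadjusted p under 0.05 (median 0.14). At that p 2 of 5 astrocyte, 2 of 5 microglia, 1 of 5 blood and 1 of 5 endothelial markers were higher, against 3.67% of all genes. Of the endothelial markers 1 was lower. Neuron markers were lower in 4 of 6 (median -0.04), none at that p, and their sum was lowest of all 19 libraries in SOR replicate 3, the library with the most Hspa5, at 2840 CPM. All 8 choroid plexus markers had log2 fold changes above 0 after SOR (median 1.75), 4 of them at an unadjusted p under 0.05, and none was called. Without SOR replicates 1 and 2, the libraries rich in choroid plexus RNA, edgeR called no gene of any of these lists, and in tTA+ mice alone it called no gene. In the former fit all 8 choroid plexus markers were below 0 (median -0.49). At an unadjusted p under 0.05, against 7.54% of all genes, 5 of 8 oligodendrocyte markers (median 0.31), 3 of 5 astrocyte markers (median 0.33), 6 of the 10 chaperones (median 0.37) and 8 of the 12 other folding genes (median 0.38) were then higher. So were 5 of 10 activity-regulated genes (median 0.61), 2 of 5 microglia markers (median 0.17) and 4 of 9 HSP70 and HSP90 genes of other compartments (median 0.21). The same held for 2 of 7 other J proteins and partners and 1 of 9 sensors and factors. Neuron markers were below 0 in 5 of 6 (median -0.15), and at an unadjusted p under 0.05 1 of 6 of them, 2 of 5 endothelial and 1 of 5 blood markers were lower, against 6.78% of all genes. The part of these cells and genes in the rise of the chaperones was not tested. Without homecage replicate 1, 2 or 3, edgeR called 1 gene of all genes tested, and without SOR replicate 3 it called 50.

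With DN none of the genes of these lists was called by edgeR, DESeq2 or limma-voom. Of the 12 other ER folding genes all had log2 fold changes below 0, with a median of -0.17 and 7 at an unadjusted p under 0.05, and the smallest p were those of Herpud1, which helps to remove misfolded proteins, at -0.22 and of Pdia4 at -0.31. The medians were -0.06 for the 9 sensors and factors, among them Xbp1 at -0.24 and Trib3 at -0.54, and -0.03 for the 7 other J proteins and partners, each with 0 at an unadjusted p under 0.05. The 9 HSP70 and HSP90 genes of other compartments had a median of -0.09, with 2 at an unadjusted p under 0.05, Hsp90aa1 and Hsp90ab1. Without the 3 libraries rich in choroid plexus RNA the 12 ER folding genes were still all below 0, with a median of -0.08. None of them and none of these other lists' genes then had an unadjusted p under 0.05 or was called by edgeR, and the medians were -0.04 for the sensors and factors, 0.0015 for the J proteins and partners and -0.02 for the other HSP70 and HSP90 genes.

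The ERSE was also read across all genes. Of the 37 genes with the element in their window, 22 were tested after SOR. Of these 14 were higher, against 51.5% of all genes, 7 were higher at an unadjusted p under 0.05, against 3.67%, 2 were called, Hspa5 and Dnajc3, and the median log2 fold change was 0.13. The 7 were Hspa5, Hsp90b1, Dnajc3, Calr, Pdia6, Creld2 and Derl3. All but Derl3 belong to the chaperones or the other ER folding genes described above. With DN 21 were tested, 15 were lower, against 50% of all genes, none was called by edgeR, 5 were lower at an unadjusted p under 0.05, against 1.81%, and the median was -0.14. The 5 were Hspa5, Hsp90b1, Dnajc3, Calr and Pdia6, all of them described above. These shares thus largely repeat genes already given and are not a separate result on the element. Of the 11 other ER folding genes with a window 5 held an ERSE. Without the libraries rich in choroid plexus RNA the median of the ERSE genes was 0.05 after SOR, with 13 of 22 higher and 0 called by edgeR (6 higher and 1 lower at an unadjusted p under 0.05, against 7.54% and 6.78% of all genes). With DN it was then -0.06, with 0 of 21 at an unadjusted p under 0.05.

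The tTA genotype was compared in experiment 2, tTA+ (5 mice) against tTA- (3 mice) with exposure in the model, because it was unevenly spread over SOR and homecage. None of the 10 genes was called by edgeR, DESeq2 or limma-voom, against 0.358% of 22904 genes called by edgeR. None had an unadjusted p under 0.05, against 5.71% of all genes, and in none did the tTA groups stand apart, against 5.88%. Log2 fold changes ran from -0.03 in Sil1 to 0.14 in Hspa13, and that of Hspa5 was 0.02 (95% interval -0.27 to 0.32).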

How the data were processed

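Total RNA depleted of ribosomal RNA was sequenced from 19 mice (5, 6, 4 and 4 per group). The authors deposited 1 table of whole-number counts per gene. The submitters' processing notes name mm10, STAR, SAMtools 1.6 and featureCounts 1.4.4. Strand setting, annotation and treatment of multiply mapped reads are not given in the sources used here. All 19 columns matched 1 sample name each. GENCODE M21 (GRCm38) held 51596 of 51789 identifiers.

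Each experiment was fitted alone on all genes with edgeR 4.0.16 (R 4.3.3): TMM, filterByExpr, robust two-sided quasi-likelihood test, adjusted p under 0.05, checked on simulated data. SE is the absolute log2 fold change over the root of F. Log2 CPM used a prior count of 2. DESeq2 1.42.0, limma 3.58.1 (voom), other scalings, filters, covariates and each library left out were alternatives. The 10 genes had counts of 320 and above per library, and counting error is part of their replicate spread. Reads are not independent molecules.

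The 10 genes, the lists and the tests were chosen with earlier results of these data known. Named genes were the 10, called genes of each list or else up to 2 with the smallest p, and the 5 most like Hspa5.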

Additional observations from a re-analysis of the deposited data

Results flagged for a closer look

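One value stood apart from its group. Hsp90b1 was at 376 CPM in DN replicate 1, while the other 4 DN libraries lay between 341 and 346 CPM, so that the gap to the nearest library was 0.860 of the whole range. The library was within the range of the controls, 336 to 443 CPM. In all, 40 sets of 1 gene in 1 group were examined, and chance flags about 1 in 20 such sets.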

How the results depend on the processing

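After SOR, 3 of the 10 genes and 20 of all genes were called. Members called were 0 with tTA as a covariate, 0 in tTA+ mice alone, 0 without libraries rich in choroid plexus RNA (an alternative chosen after seeing the data) and 0 to 3 with 1 library left out. They were 2 to 4 under the other 8 alternatives. Genes called were 36 without a filter, 118 with DESeq2, 145 with all 19 libraries in 1 fit, 11 with tTA as a covariate, 0 in tTA+ mice alone, 1 without the choroid-rich libraries and 1 to 50 with 1 library left out. The 1 was found without homecage replicate 1, 2 or 3 and the 50 without SOR replicate 3. Fits without libraries hold fewer samples, and for the other settings the cause was not tested. Log2 fold changes of Hspa5, Sdf2l1 and Dnajc3 stayed above 0 in every fit. Same-numbered samples had r of -0.05 to 0.193 in experiment 1 and 0.0458 to 0.393 in experiment 2. Not every sample correlated best with its own number. Some same-numbered samples of experiment 2 also share the tTA genotype, so these values cannot tell if samples were paired. The main fits treated them as unpaired. With the replicate number as a block 2 members and 9 genes were called after SOR, and 0 and 2 with DN. Signs turned in values near 0: Hspa13 with DN was 0.0074 without the choroid-rich libraries, and after SOR it was -0.038 in tTA+ mice alone. Dnajc10 after SOR was -0.032 with upper quartile scaling, -0.013 with at least 10 counts in every library, -0.0012 in tTA+ mice alone and -0.010 to 0.046 with 1 library left out. With 1 library left out Dnajb9 was -0.21 to 0.084 and Sil1 -0.00068 to 0.15. With DN, 0 members and 2 genes were called under all alternatives. For tTA 82 genes were called, 265 without a filter, 250 with DESeq2, 383 in 1 fit and 10 (without SOR replicate 1) to 290 (without SOR replicate 3) with 1 library left out. By longest transcript 5 of 10 genes kept their place per kb.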

Other observations

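Control mice exposed to SOR were present in both experiments, which share no library. Their values did not overlap between the experiments in 20.2% of the 21740 genes tested in both, and in 2 of the 10 chaperone genes, a share near that of all genes. All 6 in experiment 1 and 3 of 4 in experiment 2 were tTA+. Hspa5 ranged over 456 to 761 CPM in experiment 1 and 593 to 839 CPM in experiment 2, and these ranges overlap. Sil1, the smaller exchange factor, was at 17.2 to 21.5 CPM in experiment 1 and 25.0 to 33.8 CPM in experiment 2, with no overlap. The 3 tTA+ mice of experiment 2 alone were at 25.2, 33.8 and 25.0 CPM. Dnajc10 was at 97.7 to 103 CPM and 106 to 121 CPM, again with no overlap (106, 121 and 119.8 CPM in the tTA+ mice of experiment 2), although its groups overlapped within each experiment. Dnajb9 lay the other way, at 29.8 to 37.4 CPM in experiment 1 and 15.7 to 31.4 CPM in experiment 2. The homecage values of Sil1 (24.4 to 28.2 CPM) and Dnajc10 (108 to 116 CPM) were also above the values of experiment 1.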
